A study of Mus musculus with 8 samples.

Results

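The Usher syndrome genes were followed in the retinas of *dmbo* and WT mice at postnatal day 15 (P15). The set was defined by 9 gene symbols, namely *Myo7a*, *Ush1c*, *Cdh23*, *Pcdh15*, *Ush1g*, *Gpr98*, *Dfnb31*, *Clrn1* and *Cib2*, and for each of them the probe set with the highest mean over the 8 arrays was taken. Of these 9 genes, 8 were found by symbol among the 21652 genes of the table, with 10 probe sets of 28350. *Dfnb31* was found under its newer symbol *Whrn*, which is described beside the 8 members but is not counted with them. The rule names the members by symbol alone, but they were chosen with earlier results of these data known.

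The *dmbo* mice were homozygous for a nonsense mutation in *Hmx1*, which encodes a homeobox transcription factor of the eye and the ear. They had been backcrossed to C57BL/6J to remove an *Rd1* mutation, and the WT mice were C57BL/6J. Total RNA of whole retinas was hybridized to Affymetrix Mouse Gene 1.0 ST arrays, with 4 biological replicates per genotype, and values are log2 signals. Because whole retina was measured, fewer cells of a type and less RNA per cell cannot be told apart.

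Usher syndrome joins inborn hearing loss with a slow degeneration of photoreceptors. Its proteins form one linked network. In the hair cells of the inner ear, cadherin 23 (*Cdh23*) and protocadherin 15 (*Pcdh15*) make the tip links between stereocilia, and myosin VIIa (*Myo7a*), harmonin (*Ush1c*) and SANS (*Ush1g*) hold these links to the actin core. In photoreceptors, the large receptor encoded by *Gpr98* (also called *Adgrv1*) and whirlin (*Whrn*) sit at the membrane around the connecting cilium. Myosin VIIa also moves melanosomes in the pigment epithelium and takes part in protein transport through the photoreceptor cilium.

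*Myo7a* was the single member that passed the test, so its promoters are shown here. The RefSeq promoter table (GRCm38.p6) has 2 start sites for the gene, both on the minus strand. The 250 bases before each start are given 5′ to 3′, with the letters CAAG, the core of the site that HMX1 binds, in capitals on either strand (CTTG on the opposite strand).
*Myo7a*, chr7:98119494-98119743: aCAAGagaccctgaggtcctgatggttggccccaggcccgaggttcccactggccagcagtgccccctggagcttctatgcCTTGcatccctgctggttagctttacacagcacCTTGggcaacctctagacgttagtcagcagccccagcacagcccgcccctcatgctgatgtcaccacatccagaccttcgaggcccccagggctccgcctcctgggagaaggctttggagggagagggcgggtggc
*Myo7a*, chr7:98109249-98109498: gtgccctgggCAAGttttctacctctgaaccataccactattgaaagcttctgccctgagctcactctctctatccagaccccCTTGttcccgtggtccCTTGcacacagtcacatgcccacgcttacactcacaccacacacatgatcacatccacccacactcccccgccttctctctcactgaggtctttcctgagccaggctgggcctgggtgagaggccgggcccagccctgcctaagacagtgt
Each stretch held the core 3 times, and the core was present in 90.6% of all 32851 promoters of the table (300 bases, both strands). The full site, CAAGTG, was in neither. It was also in none of the 9 promoter windows found for 8 of the 9 Usher genes, whereas 13.6% of all promoters held it. *Ush1g* has no entry in that table. The windows of 300 bases, 250 of them before the start, end nearer to the start site than the window the paper searched. The absence says only that these letters are not in these windows.

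The single Usher gene that changed between the genotypes was *Myo7a*, which fell in the *dmbo* retina. The log2 signal of *Myo7a* (probe set 10565634, 54 probes, chromosome 7 from 105199570 to 105268003, minus strand, in a table that names no build) was 9.72, 9.76, 9.78 and 9.61 in WT replicates 1 to 4. Over *dmbo* replicates 1 to 4 it was 9.02, 8.98, 8.30 and 9.14. The groups did not overlap, and 0.47 log2 units separated the highest *dmbo* array from the lowest WT array. WT retinas had a mean of 9.72 ± 0.076 (SD, n = 4), and *dmbo* retinas a mean of 8.86 ± 0.38 (SD, n = 4). This is a log2 fold change of -0.86 (95% confidence interval -1.21 to -0.51, standard error, SE, 0.16), so the WT signal was 1.81-fold the *dmbo* signal. The limma adjusted p was 0.0665, and the exact permutation test gave a two-sided p of 0.0286, the smallest that 70 assignments allow. Genes were called at an adjusted p under 0.1 with at least a 1.2-fold change.

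The size of this fall rested in part on a single array. *Dmbo* replicate 3 was the lowest, 0.68 below the next, and it held 69.8% of the squared deviations within both groups. Without it the log2 fold change was -0.67, with a limma adjusted p of 0.00273. Without *dmbo* replicate 4 the adjusted p was 0.0531. The call was lost, at adjusted p values from 0.122 to 0.214, when any one of the other 6 arrays was left out (*dmbo* replicate 1 or 2 or any WT replicate), while the log2 fold change stayed between -0.91 and -0.84.

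**Figure D1:**
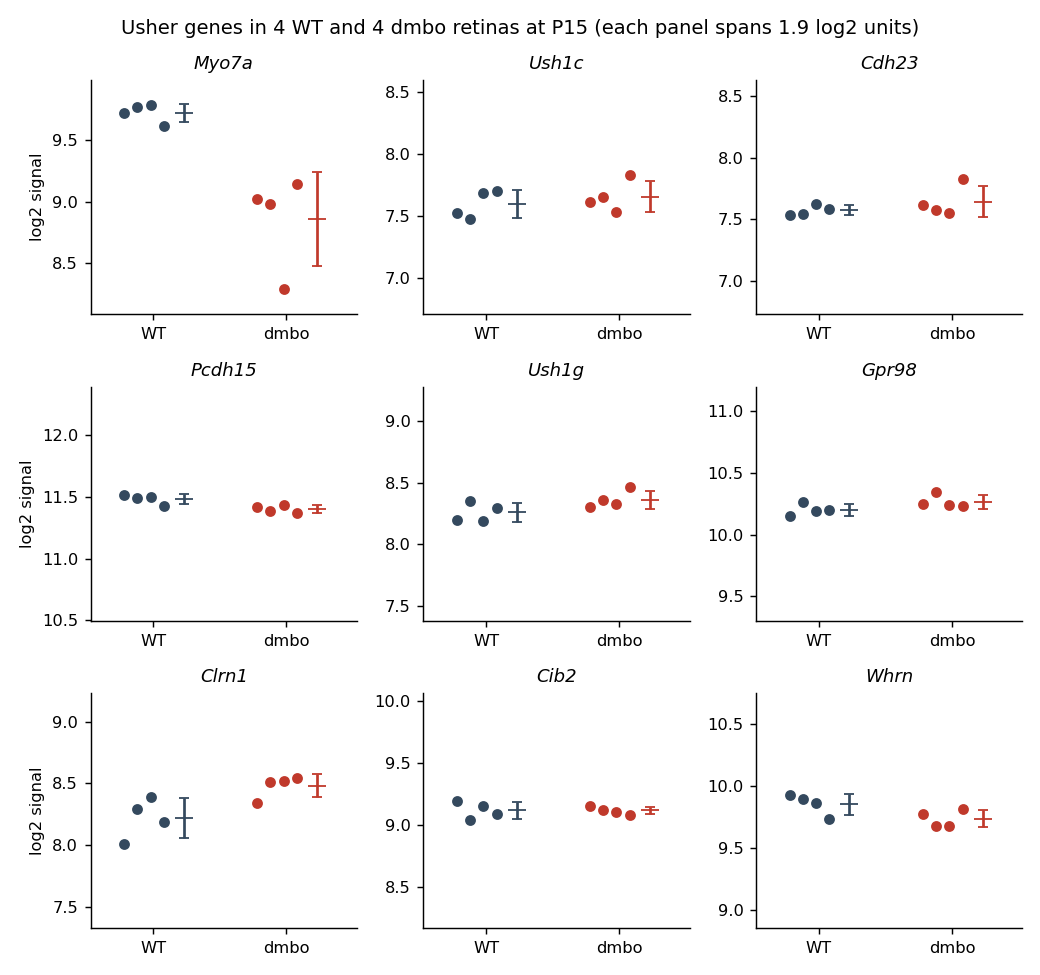
Log2 signal (vertical axis) of the 8 members and *Whrn* in 4 WT (dark) and 4 *dmbo* (red) retinas, replicates 1 to 4 from left to right, with the mean and SD beside the points. Every panel spans the same number of log2 units. The groups are apart in *Myo7a* alone, where *dmbo* replicate 3 is lowest at 8.30.

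Of the 8 members, 1 was called, while 0.633% of all genes were called and 0.319% were called as lower in *dmbo*. With no minimum fold, 1 member and 0.79% of all genes passed. The groups did not overlap in 1 member and in 5.83% of all genes. The log2 fold change was positive in 6 members and negative in 2, and its median was 0.062, against 0.0049 over all genes. Over the whole table, 12 genes had a larger fall than *Myo7a*, of which 2 were called. An unadjusted p under 0.05 was found for 2 members, *Myo7a* and *Clrn1*, and for 7.75% of all genes.

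The proteins that bind myosin VIIa at the tip link gave no change that passed the test. *Ush1c* encodes harmonin, a PDZ scaffold. Its signal (probe set 10563527, chromosome 7 from 53450720 to 53493862) was, in the order of the replicates, 7.61, 7.65, 7.53 and 7.83 in *dmbo* and 7.53, 7.48, 7.68 and 7.70 in WT retinas. The groups overlapped, with a log2 fold change of 0.06 (SE 0.076, limma adjusted p 0.969). A second probe set with this symbol, 10553197, is annotated to the plus strand, opposite to the gene, and gave a log2 difference of 0.16 (limma adjusted p 0.781). *Ush1g* encodes SANS, a scaffold that joins harmonin to myosin VIIa. The signal of *Ush1g* (probe set 10392904, chromosome 11 from 115176506 to 115183232) was 8.30, 8.36, 8.32 and 8.47 in *dmbo* and 8.20, 8.36, 8.19 and 8.29 in WT retinas. The highest value was that of *dmbo* replicate 4, and WT replicate 2 lay within the *dmbo* range, with a log2 fold change of 0.10 (SE 0.055, limma adjusted p 0.772).

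The tip link cadherins likewise did not pass. *Cdh23* encodes cadherin 23, and the C57BL/6J strain is known for a variant of this gene that brings early hearing loss. Its signal (probe set 10369307, chromosome 10 from 59766022 to 60120081) was 7.62, 7.58, 7.55 and 7.83 in *dmbo* and 7.53, 7.55, 7.62 and 7.59 in WT retinas. Only *dmbo* replicate 4 stood above the WT range (log2 fold change 0.07, SE 0.064, limma adjusted p 0.929). *Pcdh15* encodes protocadherin 15, the lower part of the tip link. The *Pcdh15* signal (probe set 10363921, chromosome 10 from 73284631 to 74108959) was 11.42, 11.39, 11.43 and 11.37 in *dmbo* and 11.52, 11.49, 11.50 and 11.42 in WT retinas. The *dmbo* arrays were the lower ones apart from an overlap with WT replicate 4, and the log2 fold change of -0.08 (SE 0.041) had a limma adjusted p of 0.743. Its second probe set, 10363915, gave a log2 difference of -0.01 (limma adjusted p 0.995).

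At the periciliary membrane, neither the receptor nor the scaffold passed. *Gpr98* encodes a very large adhesion receptor. The *Gpr98* signal (probe set 10410778, chromosome 13 from 81234067 to 81772143) was 10.24, 10.35, 10.24 and 10.23 in *dmbo* and 10.15, 10.26, 10.19 and 10.20 in WT retinas. Replicate 2 was the highest in both groups, and the log2 fold change was 0.07 (SE 0.046, limma adjusted p 0.871). *Whrn* encodes whirlin, a PDZ scaffold that binds this receptor. Its signal (probe set 10513692, chromosome 4 from 63075944 to 63156985) was 9.77, 9.68, 9.68 and 9.82 in *dmbo* and 9.93, 9.90, 9.86 and 9.73 in WT retinas. WT replicate 4 lay within the *dmbo* range, and the log2 fold change of -0.12 (SE 0.057) had a limma adjusted p of 0.7.

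*Clrn1* had the largest positive difference among the members, but it did not pass. It encodes clarin-1, a membrane protein with 4 membrane-spanning segments that in mice is known from hair cells and Müller glia. The *Clrn1* signal (probe set 10498337, chromosome 3 from 58648788 to 58689134) was 8.34, 8.51, 8.52 and 8.54 in *dmbo* and 8.01, 8.29, 8.39 and 8.19 in WT retinas. The groups overlapped through *dmbo* replicate 1 and WT replicate 3. The difference on the log2 scale was 0.26 (95% confidence interval 0.07 to 0.44, SE 0.082), with an unadjusted p of 0.011 and an adjusted p of 0.37 from limma, and the exact permutation test gave a two-sided p of 0.0571. Among markers of Müller glia, 2 of 13 were called (0.633% of all genes), both higher, with 9 positive and 4 negative differences. The called genes were the potassium channel gene *Kcnj10* (log2 fold change 0.29, limma adjusted p 0.051) and the water channel gene *Aqp4* (0.30, limma adjusted p 0.0727). At the other end, the retinal-binding protein gene *Rlbp1* had a difference of -0.10 (limma adjusted p 0.61), with all *dmbo* arrays below all WT arrays. Their part in the *Clrn1* difference was not tested.

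*Cib2* encodes a calcium-binding partner of the channel at the tip link. Its signal (probe set 10593713, chromosome 9 from 54392603 to 54407994) was 9.16, 9.12, 9.11 and 9.08 in *dmbo* and 9.19, 9.04, 9.15 and 9.08 in WT retinas. Both means rounded to 9.12, and the log2 difference was 0.0002 (95% confidence interval -0.10 to 0.10). Over the 7 members that were not called, no 95% confidence interval reached beyond a 1.36-fold change, the upper bound for *Clrn1*. *Ush1c* and *Cdh23* lay below the median signal of the arrays (8.19 to 8.28 over all probe sets), and whether their transcripts were detected was not tested.

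**Figure D2:**
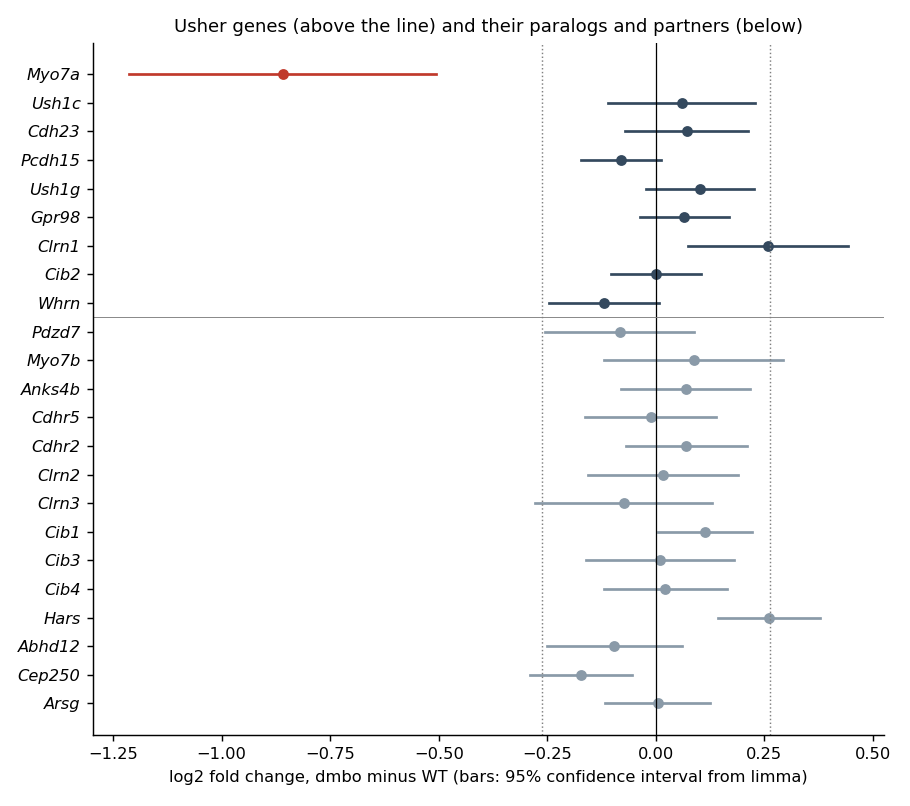
Log2 fold change, *dmbo* minus WT (horizontal axis), with its 95% confidence interval from limma for the Usher genes (above the line) and for paralogs and partner genes (below), where dotted lines mark a 1.2-fold change. *Myo7a*, in red, is the single gene that was called, at -0.86 on the log2 scale.

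The arrays differed in tissue that surrounds the retina and in sex-linked transcripts, and these values stand beside the fall of *Myo7a*. The pigment epithelium, which also uses myosin VIIa, was read from 21 marker genes. Among them is *Trpm1* (mean log2 signal 11.36 over the 8 arrays), which is also counted with the bipolar cell genes. The 21 genes therefore do not mark pigment epithelium alone. Averaged on the log2 scale, the 21 genes gave 8.69, 8.44, 8.73 and 8.98 in the *dmbo* arrays and 8.68, 8.60, 8.51 and 8.89 in the WT arrays. The groups overlapped (two-sided p = 0.743, exact permutation test). The array with the most marker signal in *dmbo*, replicate 4, had the highest *dmbo* value of *Myo7a*, and the array with the least in WT, replicate 3, had the highest WT value. Their summed linear signal ranged from 11400 to 15900 in *dmbo* and from 12000 to 15900 in WT retinas. Of the 21 genes, 1 was called (4.76%, against 0.633% of all genes). This was the keratin gene *Krt18*, which rose (log2 fold change 0.51, limma adjusted p 0.0119). Differences were positive in 12 of the 21 and negative in 9. *Rpe65*, the isomerase of the visual cycle that defines the pigment epithelium, had a log2 difference of -0.40 (SE 0.26, limma adjusted p 0.847), and the retinol carrier gene *Ttr* one of -0.14 (limma adjusted p 0.972). The melanosome enzyme gene *Tyrp1* had a difference of 0.45 (SE 0.28, limma adjusted p 0.837), in the other direction. With the pigment epithelium mean as a covariate the log2 fold change of *Myo7a* was -0.86, with a limma adjusted p of 0.105. The part of pigment epithelium in the *Myo7a* difference was not tested.

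Lens transcripts were uneven between the arrays. Over 20 lens genes the WT arrays had mean log2 signals of 7.49, 7.49, 7.71 and 8.69, and the *dmbo* arrays had 10.88, 9.71, 8.16 and 12.09 (two-sided p = 0.0571, exact permutation test). The lens crystallin gene *Cryaa* alone ranged from 9.28 to 13.64 in *dmbo* and from 8.02 to 10.52 in WT retinas. *Dmbo* replicate 3, which had the lowest *Myo7a* signal, had less lens signal than WT replicate 4. The 4 *dmbo* arrays fell in the same order by lens signal and by *Myo7a* signal (replicates 3, 2, 1 and 4 from low to high), whereas the WT array with the most lens signal, replicate 4, had the lowest WT value of *Myo7a*. The part of lens tissue in the *Myo7a* difference was not tested. *Dmbo* replicate 4 had the most lens signal and the highest values of *Ush1c*, *Cdh23* and *Ush1g*. With the lens mean as a covariate the log2 fold change of *Myo7a* was -1.29 (limma adjusted p 0.0273), and those of *Ush1c* and *Cdh23* turned to -0.13 and -0.075, neither of which passed.

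*Xist*, which coats the inactive X chromosome, was at 6.44, 12.80, 6.65 and 6.46 in the WT arrays and at 10.58, 12.73, 12.85 and 12.87 in the *dmbo* arrays. *Dmbo* replicates 1 and 2 also carried Y-linked transcripts, with *Eif2s3y* at 10.78 and 8.85, against 4.90 and 4.96 in the other *dmbo* arrays. The paper states that RNA was taken from each retina individually, with 4 animals per condition on the arrays. Whether *dmbo* replicates 1 and 2 were samples of single mice was not tested. The single WT array with high *Xist* had a *Myo7a* signal of 9.76, inside the WT range. Without *dmbo* replicates 1 and 2 the log2 fold change of *Myo7a* was -1.0 (limma adjusted p 0.261), and with *Xist* as a covariate it was -0.85 (limma adjusted p 0.709). *Xist* was high in 4 of 4 *dmbo* arrays and 1 of 4 WT arrays, so that covariate largely overlaps with genotype. The rod markers, 18 genes, lay between 12.32 and 12.45 in mean log2 signal on all arrays, and 0 were called by limma, with 1 at an unadjusted p under 0.05.

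Some markers of other retinal cells differed between the genotypes. Of 14 cone genes, 2 were called (14.3%, against 0.633% of all genes). The thyroid hormone receptor gene *Thrb* fell (log2 fold change -0.29, limma adjusted p 0.048), and *Guca1a*, an activator of guanylate cyclase, rose (0.49, limma adjusted p 0.048). The groups did not overlap in 8 of the 14 (5.83% of all genes). Of 7 horizontal cell genes, all 7 had negative differences and 1 was called (14.3%), the calcium-binding protein gene *Calb1* (-0.41, limma adjusted p 0.0623). Of 10 amacrine cell genes, 1 was called (10%), the glycine transporter gene *Slc6a9*, which fell (-0.38, limma adjusted p 0.00344). Among 12 bipolar cell genes 0 were called by limma, with 5 positive and 7 negative differences. Among 12 ganglion cell genes 0 were called by limma, with 6 positive and 6 negative differences. The part of these cells in the *Myo7a* difference was not tested.

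**Figure D3:**
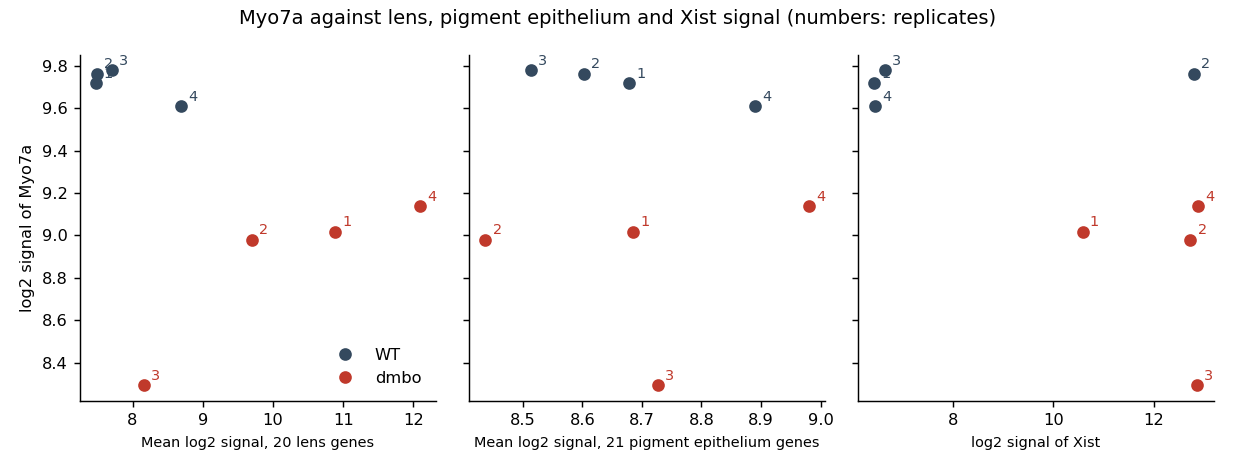
Log2 signal of *Myo7a* (vertical axis) against the mean log2 signal of 20 lens genes, the mean of 21 pigment epithelium genes and the log2 signal of *Xist* (horizontal axes), with a point per array, WT dark, *dmbo* red and replicate numbers beside the points. All *dmbo* points lie below all WT points in *Myo7a*. No WT array reached the lens signal of *dmbo* replicates 1, 2 and 4 (9.71 to 12.09, against at most 8.69 in WT).

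The genes beside *Myo7a* on chromosome 7 were examined next, because the *dmbo* line came from another stock before it was backcrossed. Among 54 genes within 2 Mb of *Myo7a*, 2 were called (3.7%, against 0.633% of all genes), and both fell. *Thrsp*, a lipogenic regulator gene known from liver and fat that lies 0.67 Mb away, was 8.30, 8.15, 8.27 and 8.20 in *dmbo* and 8.56, 8.54, 8.51 and 8.56 in WT retinas (log2 fold change -0.31, limma adjusted p 0.0232). *Snord15a*, a small nucleolar RNA gene that lies 1.4 Mb away, was 7.58, 7.62, 7.47 and 7.70 in *dmbo* and 8.002, 7.93, 7.94 and 7.94 in WT retinas (log2 fold change -0.36, limma adjusted p 0.0252). In both genes all *dmbo* arrays were below all WT arrays, and *dmbo* replicate 3 was the lowest array in *Snord15a* but not in *Thrsp*. The sialidase gene *Neu3*, 1.73 Mb away, had a limma adjusted p of 0.0795 but a log2 difference of -0.24, short of 1.2-fold. Of the 7 neighbours with an unadjusted p under 0.01, all 7 were lower in *dmbo*. Without *dmbo* replicates 1 and 2 both calls were lost, at limma adjusted p values of 0.247 for *Thrsp* and 0.325 for *Snord15a*, and without WT replicate 1 that of *Snord15a* was lost (0.101).

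The direction was mixed farther out. Within 10 Mb of *Myo7a*, 6 of 347 genes were called (1.73%, against 0.633% of all genes), 3 higher and 3 lower. The higher ones were the cathepsin C gene *Ctsc* (log2 fold change 0.30), the collagen prolyl hydroxylase subunit gene *P4ha3* (0.51) and *Lrrc51* (0.66, limma adjusted p 0.0077), and the third lower one was the olfactory receptor gene *Olfr472* (-0.27), which had little signal on any array. Of these, *Lrrc51* was called with each single array left out. *P4ha3* was not called without any one WT array (limma adjusted p 0.12 to 0.174), *Ctsc* was called in 1 of the 8 leave-outs (WT replicate 4) and *Olfr472* in 2 (*dmbo* replicate 1 or 3). Within 20 Mb, a distance chosen after the values were seen, 9 of 557 genes were called (1.62%), against 4 of 1362 on the rest of the chromosome (0.294%). Over the whole of chromosome 7, *Myo7a* included, 14 of 1920 genes were called (0.729%, against 0.633% of all genes). The called share of whole chromosomes ran from 0% on chromosomes 5, X and Y to 2.61% on chromosome 14 (21 of 805 genes). *Hmx1* itself lies on chromosome 5, and its probe set had a log2 difference of -0.0021. Loss of HMX1 function and DNA kept from the original stock cannot be told apart for a gene on chromosome 7.

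**Figure D4:**
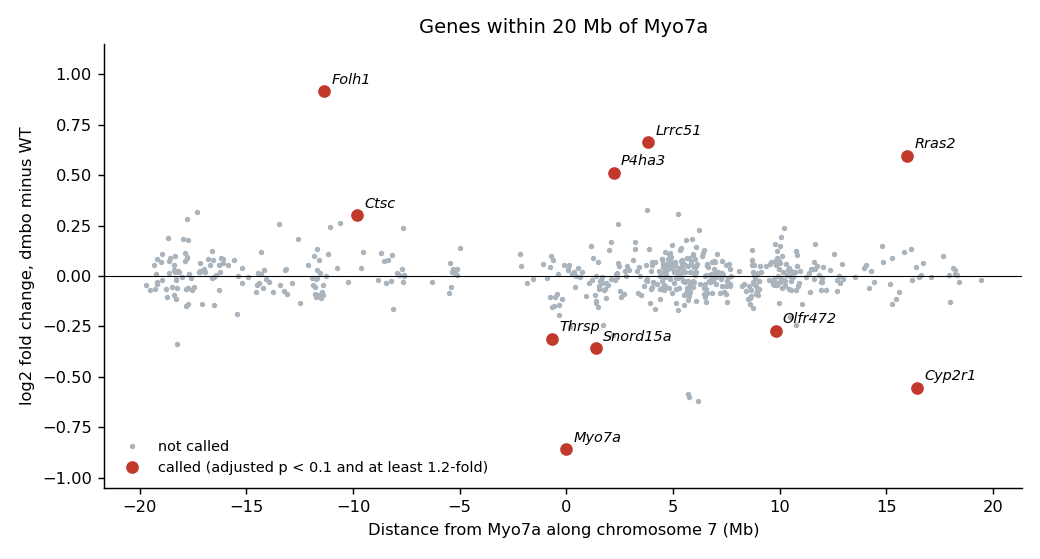
Log2 fold change, *dmbo* minus WT (vertical axis), of genes within 20 Mb of *Myo7a* against their distance from it on chromosome 7 in Mb (horizontal axis), with called genes named in red. *Thrsp* and *Snord15a*, the called genes nearest to *Myo7a*, both fell, and called genes farther away lie on both sides of 0.

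Called neighbours within 2 Mb were also found for *Clrn1*, with 1 of 31 genes (3.23%), and for *Whrn*, with 1 of 37 (2.7%), against 0.633% of all genes. *P2ry14*, a nucleotide-sugar receptor gene 0.258 Mb from *Clrn1*, fell (log2 fold change -0.38, limma adjusted p 0.0355), in the direction opposite to the difference of *Clrn1*. Its call was lost in 5 of the 8 single-array leave-outs (those of *dmbo* replicates 1 and 2 and of every WT replicate but 3, limma adjusted p 0.102 to 0.144) and with the lens covariate (0.116). *Pappa*, a secreted metalloproteinase gene 1.79 Mb from *Whrn*, rose (0.28, limma adjusted p 0.0684). It was called in 1 of the 8 leave-outs, the one without *dmbo* replicate 3, and was not called with the lens covariate (0.146) or the pigment epithelium covariate (0.101). Of the genes within 2 Mb of *Ush1c* (148 genes), *Cdh23* (55), *Pcdh15* (43), *Ush1g* (98), *Gpr98* (9) and *Cib2* (48), 0 were called by limma. An unadjusted p under 0.01 was found for 3 genes near *Pcdh15*, 2 near *Ush1g*, 1 near *Gpr98* and 0 near the other 3.

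Genes related to the Usher network were then counted in 5 lists, in which 1 of 105 different genes was called (0.952%, against 0.633% of all genes), with 51 positive and 54 negative differences and a median of -0.0035. In the first list, 15 paralogs and further genes of Usher-like disease, 0 were called by limma and 3 had an unadjusted p under 0.05. *Hars*, the histidyl-tRNA synthetase gene that has been linked to a rare human Usher type, was 9.62, 9.59, 9.64 and 9.49 in *dmbo* and 9.25, 9.35, 9.29 and 9.40 in WT retinas. Its groups did not overlap and its limma adjusted p was 0.09, but its log2 difference of 0.26 was just short of 1.2-fold, so it was not called. *Myo7b*, the myosin most like *Myo7a*, had a log2 difference of 0.09 (limma adjusted p 0.947).

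In the hair bundle list, 0 of 27 genes found by symbol were called and 1, *Triobp*, had an unadjusted p under 0.05, and their differences ranged from -0.10 to 0.13 on the log2 scale. Its most intense members, the polarity gene *Gpsm2* and the calcium pump gene *Atp2b2*, had differences of 0.04 and -0.09. The listed symbol *Lrtomt*, a human deafness gene, was not found, but RefSeq gives it as a synonym of *Lrrc51*, the gene 3.84 Mb from *Myo7a* that rose 1.58-fold. If *Lrrc51* is taken as this entry, 1 of 28 genes was called, against 0.633% of all genes. The synonym alone does not show that mouse *Lrrc51* is a deafness gene or acts in the hair bundle, and it is not in the count of 27. The signal of *Lrrc51* was 8.99, 8.99, 9.25 and 8.90 in *dmbo* and 8.38, 8.39, 8.47 and 8.24 in WT retinas. The highest *dmbo* array was replicate 3, the one with the lowest *Myo7a*.

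Among 25 known binding partners of Usher proteins, 0 were called and 1 had an unadjusted p under 0.05. *Snap25*, a synaptic fusion protein gene, had a log2 difference of -0.02. In the list of the calyceal processes and the periciliary region, 1 of 23 genes was called (4.35%, against 0.633% of all genes). This was *Rpgrip1*, which encodes a connecting cilium protein, at 12.34, 12.42, 12.34 and 12.40 in *dmbo* and 12.75, 12.66, 12.69 and 12.68 in WT retinas (log2 fold change -0.32, limma adjusted p 0.0155). It lies on chromosome 14, where 21 of 805 genes were called (2.61%), and DNA kept from the original stock cannot be told apart there either. The *Rpgrip1* call held in 8 of 8 single-array leave-outs. It was lost without *dmbo* replicates 1 and 2 (limma adjusted p 0.222) and with the *Xist* covariate (0.477). Of 23 unconventional myosins other than *Myo7a*, 0 were called and 4 had an unadjusted p under 0.05, and their differences ranged from -0.15 to 0.14 on the log2 scale. *Myo9a* and *Myo18b*, the most intense of them, had differences of 0.06 and 0.09.

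**Figure D5:**
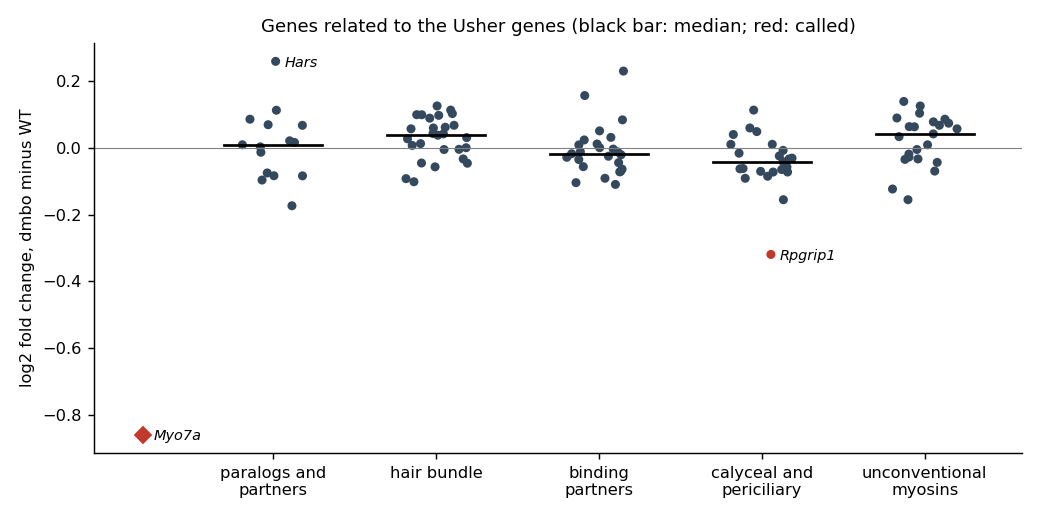
Log2 fold change, *dmbo* minus WT (vertical axis), of the genes in 5 lists related to the Usher genes (a point per gene, black bar the median), with *Myo7a* at the left. *Rpgrip1* at -0.32 is the called gene of these lists, *Hars* at 0.26 fell just short, and *Myo7a* at -0.86 lies below every gene of the lists.

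The genes whose values over the 8 arrays were most like those of *Myo7a* were sought among 10826 genes above the median signal. They were the glucuronyltransferase gene *B3gat2* (Pearson correlation 0.971), *Triobp*, an actin-bundling gene of the stereocilium rootlet that is also in the hair bundle list (0.966), the mannosyltransferase gene *Pigv* (0.966), *2210404O07Rik* (0.964) and the transcription factor gene *Elk1* (0.961). These 8 values share the difference between the groups, and *dmbo* replicate 3 was the lowest array in all 5. The log2 difference of *B3gat2* was -0.26 and those of the other 4 ranged from -0.13 to -0.10, and 0 of the 5 were called. By deviations from the group means, the most alike were *E130112L23Rik* (0.991), *Mir181c* (0.96) and *Socs3* (0.951), an order that rests largely on *dmbo* replicate 3. Their log2 differences were positive, from 0.09 to 0.11, and overlapped between the groups.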

How the data were processed

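Retinal RNA at P15, from 4 *dmbo* and 4 WT mice as the paper states, was measured on Affymetrix Mouse Gene 1.0 ST arrays. The authors made the deposited log2 values with RMA (background correction, quantile normalization and a summary per probe set). The RMA version was not given in the sources used here. Columns with deposited p-values, FDR and fold changes hold the authors' own limma comparison and were not used. The values were fitted with limma 3.58.1 in R 4.3.3 on all 28350 probe sets (*dmbo* minus WT, empirical Bayes, Benjamini-Hochberg adjustment). A call needed a change of 1.2-fold or more and an adjusted p below 0.1. The number of arrays limits the precision. The fit was tested on simulated data with known changes. The labels call the arrays biological replicates.

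The members, the lists and the tests were chosen with earlier results of these data known. Named genes were all members and their called neighbours within 2 Mb, the called genes of each list (or the 2 of highest signal), set markers, and the 5 and 3 genes most alike to a called member. *Eif2s3y*, *Tyrp1*, *Rlbp1*, *Myo7b*, *Neu3*, *Hars*, *Lrrc51* and the called genes beyond 2 Mb were named after their values were seen, and the *Myo7a* promoters were printed because that gene was called. Promoters and newer symbols come from RefSeq (GRCm38.p6). Array positions are those of the deposited table, which names no build, and were not set against the promoter positions. Alternatives covered normalization, filters, prior, weights, replicate number, arrays left out, covariates and call rules. The values of some single genes of the rule were left out of the text.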

Additional observations from a re-analysis of the deposited data

Results flagged for a closer look

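Among 56 groups of 4 arrays examined for the named Usher genes, neighbours and related genes, 3 had an array far from the others, and chance alone gives about 1 in 20. In *Gpr98*, *dmbo* replicate 2 was at 10.35 and the others between 10.23 and 10.24 (gap over range 0.883). In *Snord15a*, WT replicate 1 was at 8.002 and the others between 7.93 and 7.94 (0.837). In *P4ha3*, WT replicate 1 was at 7.42 and the others between 7.38 and 7.39 (0.897). *Myo7a* in *dmbo* was not among them, since the gap of replicate 3 over the range was 0.811, under the critical value for 4 arrays.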

How the results depend on the processing

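*Myo7a* kept its direction in 23 of 23 alternatives (log2 fold change -1.29 to -0.67) and its call in 12. The count of called Usher genes fell from 1 to 0 in the other 11: a trended and robust prior (log2 fold change -0.86, limma adjusted p 0.131), the pigment epithelium covariate (-0.86, 0.105), the *Xist* covariate (-0.85, 0.709), without *dmbo* replicates 1 and 2 (-1.0, 0.261), the replicate number as a block (-0.86, 0.117) and 6 of the 8 single arrays left out. With 1 array left out, the log2 fold change ranged from -0.95 to -0.67, the Usher count from 0 to 1, the related lists' count from 1 to 2 and the count of *Myo7a* neighbours from 1 to 3. The cause of these losses was not tested. With the lens covariate, *Ush1c* turned to -0.13 and *Cdh23* to -0.075. *Cib2*, near 0, turned to -0.01 with median centring, to -0.022 without *dmbo* replicates 1 and 2, and lay between -0.025 and 0.0246 with single arrays left out. The related lists' count of 1 became 2 with cyclic loess, array weights or no minimum fold, 4 with the lens covariate, and 0 with the *Xist* covariate, without *dmbo* replicates 1 and 2, or at 1.5-fold. The neighbour count of 2 became 1 above the median signal, 4 with the lens covariate, and 0 with the *Xist* covariate, without *dmbo* replicates 1 and 2, or at 1.5-fold. Over all genes, 137 were called, 253 with array weights, 669 with the lens covariate, 20 with the *Xist* covariate, 44 without *dmbo* replicates 1 and 2, and 70 to 154 with 1 array left out. Correlations of deviations cannot settle whether the replicate numbers pair the samples. They ran from -0.016 to 0.411 between equally numbered *dmbo* and WT arrays, and from -0.513 to 0.307 between differently numbered ones. The replicate block gave 113 calls. The *P2ry14* and *Pappa* calls were also lost with the replicate block (limma adjusted p 0.106 and 0.172), as were those of *Ctsc* (0.121) and *Olfr472* (0.11).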
